A study of Mus musculus with 6 samples.

Results

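The transcripts of 9 chemoattractant receptors were followed in mouse bone marrow-derived macrophages treated with KN93. The genes were chosen by name: the chemokine receptors Cx3cr1, Ccr1, Ccr2 and Cxcr4, the atypical chemokine receptor Ccrl2, the complement receptors C5ar1 and C3ar1, and the formyl peptide receptors Fpr1 and Fpr2. The choice was made with earlier results of these data known. Each gene had 1 entry among the 54446 gene entries measured by RNA sequencing. The macrophages came from bone marrow of 6-week-old C57BL/6 mice and had been given PBS, a buffer, KN93 at 5 µM or KN93 at 10 µM, with 2 samples in each of the 3 groups. KN93 inhibits CaMKII and CaMKIV, kinases that are switched on by calcium-bound calmodulin. The labels give neither the length of treatment nor the solvent of KN93, and the prefix DXM, which all 6 column names share, is not explained. Nor do they state that the 2 samples of a group are separate cultures or separate mice, so the p-values cover the spread between these 6 libraries alone, and that spread may be technical.

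Chemoattractant receptors are membrane proteins with several transmembrane helices that mostly signal through Gi proteins and steer cells up gradients of chemokines, complement fragments or formylated peptides. Monocytes and macrophages use them to reach inflamed tissue: Ccr2 guides classical monocytes out of the marrow, Cx3cr1 binds fractalkine and marks resident and patrolling cells, and Cxcr4 holds cells in the marrow through Cxcl12. C5ar1 and C3ar1 bind the complement fragments C5a and C3a, and the Fpr receptors bind formylated peptides from bacteria and mitochondria. Ccrl2 is atypical: it binds chemerin and presents it to neighbouring cells without the usual G protein signal.

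The genes lie on 5 chromosomes of build GRCm38 (GENCODE M21). Chromosome 9 carries 4 of them: Ccrl2 at chr9:111054486-111057519, Cx3cr1 at chr9:119901616-120069879, Ccr1 at chr9:123962124-123968692 and Ccr2 at chr9:124101950-124113557. Fpr1 at chr17:17876471-17883940 and Fpr2 at chr17:17887824-17893952 are neighbours on opposite strands, 3.88 kb apart. Cxcr4 lies at chr1:128588199-128592293, C3ar1 at chr6:122847138-122856161 and C5ar1 at chr7:16246743-16259540. All 9 are annotated as protein coding. To show how far fragments could be shared with related genes, every 50-base window of each gene's GENCODE transcripts was looked up in the transcripts of all other genes. None was shared for Ccr1, Ccrl2, Cxcr4, C5ar1 and C3ar1, while 0.0784% were shared for Fpr1, 1.06% for Cx3cr1 and 1.91% for Ccr2. For Fpr2 the share was 31.5%, with the predicted gene Gm5966 and with Fpr3, so the values of Fpr2 are uncertain. Fpr3 was listed at 0 in all 6 samples. Cx3cr1 shares 78 exon bases with Gm33858 on the opposite strand, and no use of strand is stated.

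The stretches before the RefSeq starts of Ccrl2, which rose most among the 9, and Fpr1, which fell second most on the log2(FPKM + 1) scale, show the promoters of genes that went opposite ways (RefSeq, GRCm38.p6, both on the minus strand). The stretch of Cx3cr1, the gene that fell most, is annotated as exon in GENCODE and is not printed. Each run is written 5′ to 3′, ends at the base before the first annotated exon base, and covers 249 bases, at chr9:111057520-111057768 for Ccrl2 and at chr17:17883941-17884189 for Fpr1. Capitals mark the letters AGGAA, the core bound by ETS factors such as PU.1, and GGANTTTCC, a form bound by the NF-κB subunit RelA, on either strand.
Ccrl2: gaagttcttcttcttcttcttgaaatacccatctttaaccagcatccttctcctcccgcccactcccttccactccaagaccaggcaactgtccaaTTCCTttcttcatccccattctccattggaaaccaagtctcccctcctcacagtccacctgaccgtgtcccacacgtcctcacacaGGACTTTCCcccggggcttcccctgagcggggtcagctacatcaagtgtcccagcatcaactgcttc
Fpr1: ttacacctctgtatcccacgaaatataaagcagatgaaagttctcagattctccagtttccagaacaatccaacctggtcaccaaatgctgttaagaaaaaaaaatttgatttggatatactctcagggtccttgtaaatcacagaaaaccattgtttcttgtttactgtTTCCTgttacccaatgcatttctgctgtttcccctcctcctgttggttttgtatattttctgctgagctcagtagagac
Both stretches held 1 AGGAA core. The Ccrl2 stretch also held 1 match to GGANTTTCC, which began 68 bases before the start. Both strands were searched in the 250 bases before each start, together with the AP-1 letters TGANTCA, the CRE core TGACGT and the second RelA form GGGNTTTCC. These letters were chosen with the sequences in view. Of 32851 RefSeq promoter entries, 60.3% held AGGAA, 1.07% GGANTTTCC, 1.46% GGGNTTTCC, 6.75% TGANTCA and 6.47% TGACGT. Of the 9 receptor genes, 8 had AGGAA in an entry, and only Ccrl2 had GGANTTTCC. TGANTCA was found for C3ar1 alone and TGACGT for Ccrl2 alone, in its alternative starts. These matches are descriptions of the letters and show no binding.

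Levels are given in FPKM, a fragment count divided by gene length and library total, which puts genes and samples on a common scale. FPKM does not correct for shared sequence or for a shift in the makeup of a library. The library totals implied by the values ran from 24200000 to 28400000 fragments, and 11964 to 12175 genes reached 1 FPKM in a sample. The replicates of each group differed by more than counting noise (median chi-square per gene 1.08 to 1.61, against 0.455 for counting noise alone), so none was treated as 1 library deposited again. Differences were tested with limma on log2(FPKM + 1), a scale that understates the change of low genes, over the 12722 genes that reached 1 FPKM in 2 or more of the 6 samples. A gene was called, that is said to have risen or fallen, at a Benjamini-Hochberg adjusted p under 0.05. All 9 receptor genes passed the filter, but Ccr2 passed only through its PBS samples, where it was highest. Its calls against PBS are therefore no support for a fall. Errors of log2 changes are standard errors from limma, and those of FPKM means are SD (n = 2). These are bulk samples, so fewer cells of a type and less RNA per cell cannot be told apart.

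**Figure D1:**
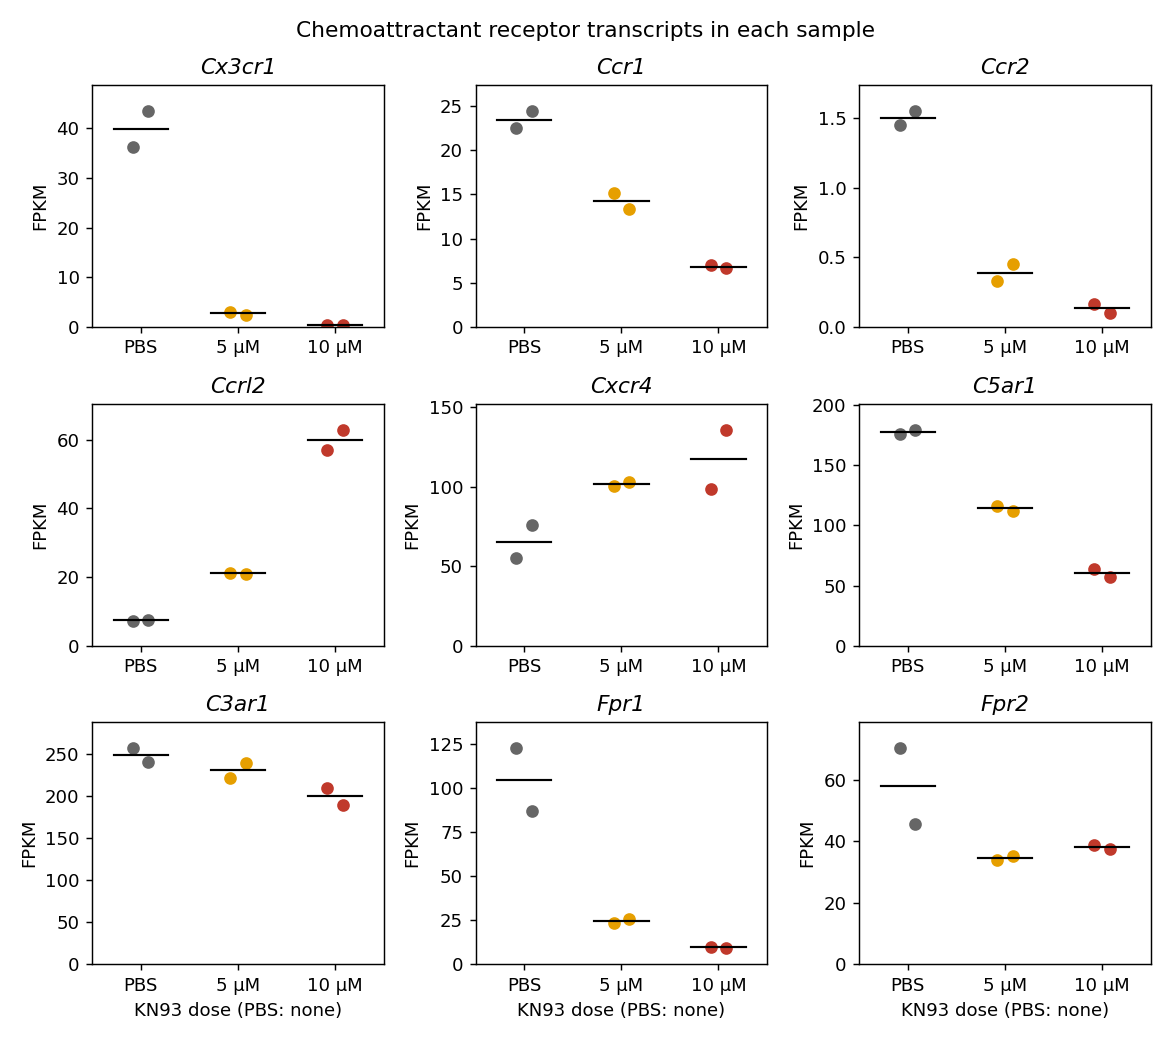
FPKM of each receptor gene (y axis, from 0, own scale per panel) in the PBS, 5 µM and 10 µM groups (x axis); points are the 2 samples of a group and lines their mean. Ccrl2 goes from a mean of 7.31 to 21.03 and 60.0 FPKM and Cx3cr1 from 39.9 to 2.69 and 0.342 FPKM, while C3ar1 stays between 189 and 257 FPKM.

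At 5 µM KN93, Cx3cr1, Ccr1, Ccr2, C5ar1, Fpr1 and Fpr2 fell and Ccrl2 rose against PBS, while Cxcr4 and C3ar1 were not called. These 6 falls among 9 genes stand beside 15.4% of all tested genes that fell, and the 1 rise beside 15.1% that rose (limma). Ccr2 counts among the falls at both doses, but its calls are no support for a fall, given how it passed the filter. At 10 µM, Cx3cr1, Ccr1, Ccr2, C5ar1, C3ar1 and Fpr1 fell and Ccrl2 and Cxcr4 rose. Here 22.0% of all tested genes fell and 28.5% rose. Rises made 56.5% of these calls, 49.6% with median-of-ratios scaling and 39.5% with an added threshold of 1 on the size of the log2 change. In each of the 9 genes the samples of PBS and of either dose did not overlap, but with 2 samples a group this was true of most genes: 70.0% of all tested genes at 5 µM and 76.7% at 10 µM, while 30.5% and 50.5% were called. The median log2 change of the 9 genes was -0.68 at 5 µM and -1.14 at 10 µM, beside 0.01 and 0.05 over all tested genes. Both medians include Ccr2, and the one at 10 µM is the value of Ccr2 itself, so that median is no support for a fall. Between 5 µM and 10 µM, Cx3cr1, Ccr1, C5ar1 and Fpr1 fell further and Ccrl2 rose further, a comparison in which 19.9% of all tested genes were called, 8.50% lower and 11.4% higher. Rises made 57.4% of all calls between the doses, or 44.1% with median-of-ratios scaling. The comparisons share samples: PBS serves both doses.

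**Figure D2:**
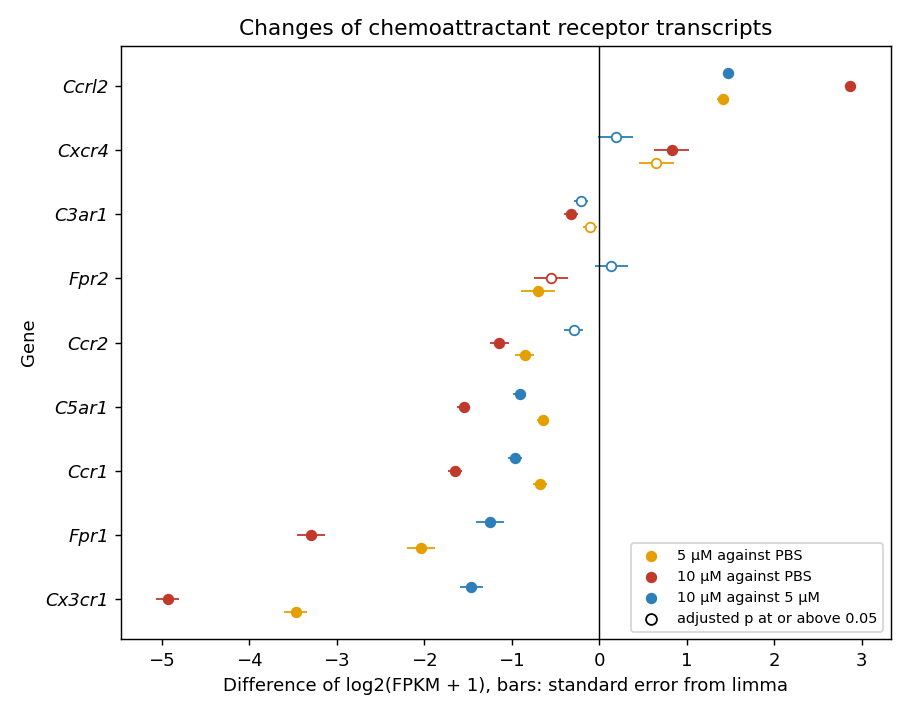
Difference of log2(FPKM + 1) (x axis) for each receptor gene (y axis) in the 3 comparisons (each dose with PBS, and 10 µM with 5 µM); bars are standard errors from limma and open points have an adjusted p of at least 0.05. Cx3cr1 and Fpr1 lie farthest to the left at 10 µM (-4.93 and -3.29) and Ccrl2 farthest to the right (2.87).

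Markers of cell types that carry these receptors moved in the same samples, in which 15.4% of all tested genes fell at 5 µM and 22.0% at 10 µM. Of 6 classical monocyte markers 5 were tested, and all 5 fell at both doses (limma; 3 without PBS replicate 1 or 5 µM replicate 2 at 5 µM, and 3 tested and called with a filter of 5 FPKM). Their summed level lay at 85.6 to 87.0 FPKM with PBS, at 18.7 to 19.6 at 5 µM and 4.28 to 5.84 at 10 µM. Ly6c2, which defines classical monocytes, went from 23.6 and 21.8 FPKM with PBS to 5.33 and 5.62 at 5 µM and 1.63 and 1.22 at 10 µM. Of 11 neutrophil markers 6 were tested, of which 4 fell at 5 µM and 6 at 10 µM, and their sum went from 192 to 194 FPKM in the PBS samples over 110 to 119 at 5 µM down to 61.0 to 67.3 at 10 µM. The neutrophil-defining genes Ly6g and Cxcr2 were at or near 0, with at most 0.112 and 0.162 FPKM in any sample. The 10 macrophage markers were all expressed. Their sum lay between 19420 and 19930 FPKM with PBS, between 14850 and 15340 at 5 µM and between 8473 and 9333 at 10 µM. Most of it was Lyz2, with 15400 and 15052 FPKM with PBS and 5849 and 6568 at 10 µM. Of the 10, 6 fell and 2 rose at 5 µM. At 10 µM 8 fell and Cd68 rose (0.77 on the log2 scale, limma adjusted p = 0.000403). Lyz2, Cd68 and Csf3r were named after their values were seen. Adgre1, which encodes F4/80, fell from 1049 and 913 FPKM to 343 and 339 at 10 µM. Of 9 stromal markers 7 were tested, 4 fell at 5 µM and 5 at 10 µM, and their sum went from 1759 to 1817 FPKM with PBS to 321 to 344 at 10 µM. Dendritic cell markers summed to 9.82 to 10.8 FPKM with PBS, 13.2 to 14.2 at 5 µM and 8.44 to 10.2 at 10 µM. Mast cell and basophil markers summed to 5.21 to 5.51 FPKM with PBS and 1.16 to 1.37 at 10 µM. Of these 5 only Mcpt8 was tested, and it fell at 10 µM (log2 change -1.20). Lymphocyte markers summed to 11.8 to 12.4 FPKM with PBS, 7.72 to 8.19 at 5 µM and 3.4 to 3.83 at 10 µM. Of these 10 only Cd79b and Cd4 were tested, and both fell at 10 µM. The untested ones had at most 0.154 FPKM in any sample. The part of these marker changes in the receptor changes was not tested.

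Cx3cr1, the fractalkine receptor, had the largest fall of the 9. It stood at 36.3 and 43.5 FPKM with PBS, then 3.07 and 2.32 with 5 µM and 0.285 and 0.399 with 10 µM KN93. Both samples of each dose lay far below both PBS samples, and the doses did not overlap. The mean went from 39.9 ± 5.13 FPKM with PBS to 2.69 ± 0.527 at 5 µM and 0.342 ± 0.0807 at 10 µM, which is 14.8-fold lower at 5 µM and 117-fold lower at 10 µM than with PBS. The log2 changes were -3.47 ± 0.13 at 5 µM (limma adjusted p = 0.000172) and -4.93 ± 0.13 at 10 µM (adjusted p = 1.56e-05), which were the second largest fall of all tested genes at 5 µM and the third largest at 10 µM. The values at 10 µM rested on 31 and 51 fragments, against 4396 and 5555 with PBS, so their precision is limited by counting. From 5 µM to 10 µM the mean fell another 7.89-fold (log2 change -1.46 ± 0.13, limma adjusted p = 0.00252). On the log2(FPKM + 1) scale the second dose step was smaller than the first, by 2.01 ± 0.23 (adjusted p = 0.0216), the only call among the 9 in a contrast that called 5.36% of all tested genes, 2.88% with a positive and 2.48% with a negative difference. This call depended on the scale and on single samples. With voom on recovered fragments the steps were -3.93 and -2.94 and the adjusted p of their difference was 0.191, with a pseudocount of 0.1 FPKM it was 0.102, and without any 1 of 5 samples (all but PBS replicate 2) it lay between 0.0506 and 0.127. Over 14 alternatives it ran from 0.0106 to 0.191. The drop itself was called in each of 15 alternatives in all 3 comparisons. The antisense gene Gm33858 stood at 1.24 and 1.15 FPKM with PBS and was listed at 0 in both 10 µM samples.

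Ccr1, a receptor for several inflammatory chemokines, including Ccl6 and Ccl9 in the mouse, fell at each dose step. It measured 22.5 and 24.5 FPKM in the PBS samples, 15.2 and 13.3 at 5 µM, and 7.01 and 6.63 at 10 µM. The 3 groups were fully separated, in the order of the dose. The log2 change was -0.68 ± 0.08 at 5 µM and -1.65 ± 0.08 at 10 µM (limma adjusted p = 0.00296 and 6.57e-05), and -0.96 ± 0.08 between the doses (adjusted p = 0.00205). The difference between the steps was -0.28 ± 0.14 and was not called (adjusted p = 0.267). Ccr2, the receptor for Ccl2 and Ccl7 on classical monocytes, was the lowest of the 9 in every group. It read 1.45 and 1.55 FPKM with PBS, 0.326 and 0.448 in the 5 µM samples and 0.165 and 0.099 in the 10 µM samples. Those values rested on 264 and 297 fragments with PBS, then 58 and 84 with 5 µM and 27 and 19 with 10 µM KN93. Ccr2 passed the filter only through its PBS samples, so its calls against PBS are no support for a fall. It was lower by 0.85 ± 0.11 at 5 µM and by 1.14 ± 0.11 at 10 µM on the log2(FPKM + 1) scale (limma adjusted p = 0.00423 and 0.000632). That scale compresses so low a gene: the means were 3.88-fold and 11.4-fold lower, and voom on recovered fragments gave log2 changes of -2.0 and -3.58. The step from 5 µM to 10 µM was not called for Ccr2 (-0.29 ± 0.11, adjusted p = 0.119), but it was called with voom (-1.58, adjusted p = 0.0108) and without the intensity trend (adjusted p = 0.044), in a range of 0.0108 to 0.36 over 14 alternatives.

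Ccrl2 rose at both doses and was the only 1 of the 9 called higher in every comparison. Its 2 samples per group lay close together, at 7.25 and 7.36 FPKM with PBS, 21.1 and 20.97 in the 5 µM samples and 57.0 and 63.0 in the 10 µM samples. No sample of a group reached the range of the next. The mean went from 7.31 ± 0.0781 FPKM with PBS to 21.03 ± 0.0907 at 5 µM and 60.0 ± 4.23 at 10 µM, which is 2.88-fold higher at 5 µM and 8.21-fold higher at 10 µM than with PBS, and 2.85-fold higher at 10 µM than at 5 µM. The log2 changes were 1.41 ± 0.06, 2.87 ± 0.06 and 1.47 ± 0.06 in that order (limma adjusted p = 0.000224, 1.25e-05 and 0.000491). At 10 µM Ccrl2 ranked 17 among all tested genes by the size of its rise. The 2 dose steps differed by 0.06 ± 0.10 (adjusted p = 0.759), a difference within its error. Cxcr4, the receptor for Cxcl12, also rose at 10 µM, with replicates that were spread more widely. It stood at 55.0 and 75.6 FPKM with PBS, then 100.6 and 102.7 with 5 µM and 98.5 and 135.9 with 10 µM KN93. Both doses lay above both PBS samples, while the 10 µM samples lay on either side of the 5 µM samples. The rise at 10 µM was 0.83 ± 0.20 on the log2 scale (limma adjusted p = 0.0158). That call was lost without PBS replicate 1 (adjusted p = 0.0628), without 10 µM replicate 2 (0.0645) and without a filter (0.0589), in a range of 0.00364 to 0.0645 over 15 alternatives. The difference at 5 µM was 0.65 ± 0.20 and just missed the threshold (adjusted p = 0.0543). It passed in 8 of 15 alternatives, and without PBS replicate 1 it was 0.42 (adjusted p = 0.203).

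Of the complement receptors, C5ar1 fell at both doses and C3ar1 at 10 µM, and the difference between the genes was not tested. C5ar1, the C5a receptor, measured 176.4 and 179.9 FPKM in the PBS samples, 116.2 and 112.2 at 5 µM, and 64.0 and 56.8 at 10 µM. Its groups were separated at each step, and the replicates differed by at most 1.13-fold. C5ar1 fell by 0.64 ± 0.07 at 5 µM, by 1.55 ± 0.07 at 10 µM and by 0.91 ± 0.07 between the doses (limma adjusted p = 0.00218, 5.07e-05 and 0.00155). C3ar1, the C3a receptor, was the highest of the 9 in every group, at 257.2 and 240.8 FPKM with PBS, 221.3 and 240.1 in the 5 µM samples and 210.2 and 189.4 in the 10 µM samples. The higher of the 5 µM samples lay within 1 FPKM of the lower PBS sample, and the 10 µM samples lay below both other groups. C3ar1 was not called at 5 µM (-0.11 ± 0.08, adjusted p = 0.325) and fell slightly at 10 µM (-0.32 ± 0.08, adjusted p = 0.0172, limma). The 10 µM call was lost without PBS replicate 1 (adjusted p = 0.0894), without 10 µM replicate 2 (0.0706), with no filter (0.0565) and with quantile normalization (0.0556), in a range of 0.00371 to 0.0894 over 15 alternatives. Within a sample, C5ar1 was 0.686 and 0.747 times as high as C3ar1 in FPKM with PBS, 0.525 and 0.467 times at 5 µM, and 0.304 and 0.30 times at 10 µM.

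Of the neighbouring formyl peptide receptors, Fpr1 fell at both doses while Fpr2 was called at 5 µM and missed the threshold at 10 µM; the difference between the genes was not tested. Fpr1, the receptor with high affinity for formylated bacterial peptides, stood at 122.5 and 86.8 FPKM with PBS, then 23.3 and 25.4 with 5 µM and 9.94 and 9.31 with 10 µM KN93. The PBS samples differed by 1.41-fold, yet both were far above all KN93 samples. Fpr1 fell by 2.04 ± 0.16 at 5 µM, by 3.29 ± 0.16 at 10 µM and by 1.25 ± 0.16 between the doses (limma adjusted p = 0.000855, 6.51e-05 and 0.006). The mean was 4.29-fold and 10.9-fold lower than with PBS. Fpr2, which binds formylated peptides as well as annexin A1 and serum amyloid A, measured 70.4 and 45.6 FPKM in the PBS samples, 33.9 and 35.2 at 5 µM, and 39.0 and 37.5 at 10 µM. PBS replicate 1 was 1.54-fold above PBS replicate 2, and the 10 µM samples lay slightly above the 5 µM samples. Fpr2 fell at 5 µM (-0.70 ± 0.19, limma adjusted p = 0.0393), a call kept in 8 of 15 alternatives (adjusted p from 0.00307 to 0.14). Without PBS replicate 1 that change was -0.39 (adjusted p = 0.0249). It was not called without either 5 µM replicate (0.14 and 0.119) or without either 10 µM replicate (0.069 and 0.0691), nor with no filter (0.125), without the intensity trend (0.0503) or with only the groups compared (0.0696). At 10 µM the difference was -0.55 ± 0.19 (adjusted p = 0.053), with -0.25 without PBS replicate 1 (0.0395) and -0.86 without PBS replicate 2 (0.00122), in a range of 0.00122 to 0.168 over 15 alternatives. Between the doses Fpr2 was not called (0.14 ± 0.19, adjusted p = 0.627). Both Fpr genes were higher in PBS replicate 1 than in PBS replicate 2, and between these 2 samples their ratio varied less than their levels. Fpr1 was 1.74 and 1.91 times as high as Fpr2 in FPKM with PBS, 0.687 and 0.722 times at 5 µM, and 0.255 and 0.248 times at 10 µM, with the caution about shared sequence above.

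The order of the 9 receptors by FPKM changed with the dose. With PBS it ran C3ar1, C5ar1, Fpr1, Cxcr4, Fpr2, Cx3cr1, Ccr1, Ccrl2 and Ccr2, and Cxcr4 and Fpr2 were the only neighbours whose samples overlapped. At 5 µM it ran C3ar1, C5ar1, Cxcr4, Fpr2, Fpr1, Ccrl2, Ccr1, Cx3cr1 and Ccr2, and no neighbours overlapped. At 10 µM it ran C3ar1, Cxcr4, C5ar1, Ccrl2, Fpr2, Fpr1, Ccr1, Cx3cr1 and Ccr2, with an overlap only between C5ar1 and Ccrl2. The summed level of the 9 was 706 and 749 FPKM in the PBS samples, 535 and 553 at 5 µM, and 486 and 499 at 10 µM. Ccrl2 made up 0.968% and 1.04% of that sum with PBS and 11.7% and 12.6% at 10 µM, and Cxcr4 went from 7.34% and 10.7% to 20.3% and 27.2%. Fpr1 went from 16.4% and 12.3% to 2.04% and 1.87%, and Cx3cr1 from 4.84% and 6.17% to 0.0586% and 0.0799%. C3ar1 held between 34.1% and 43.4% in all samples.

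**Figure D3:**
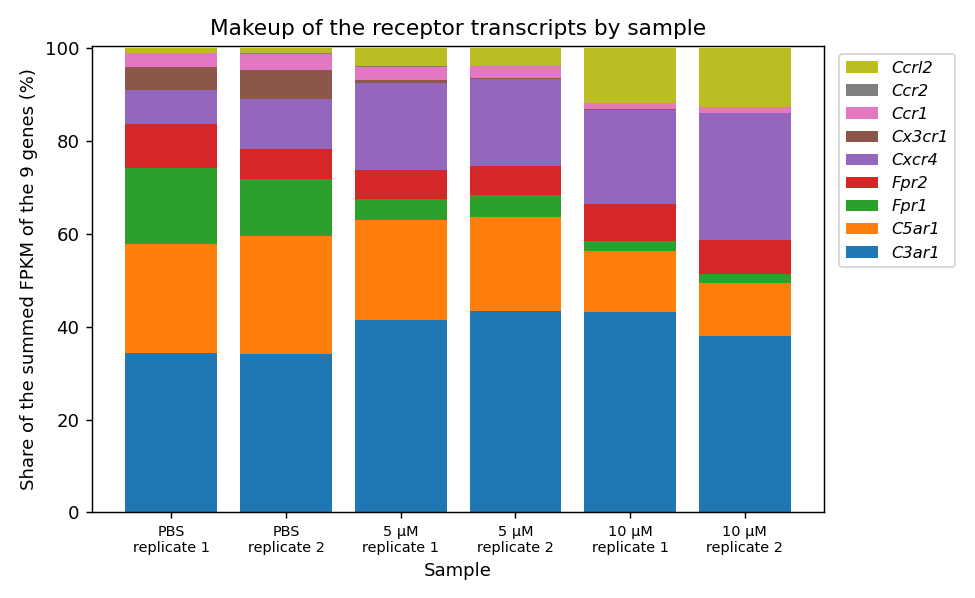
Share of the summed FPKM of the 9 receptor genes (y axis, percent) held by each gene in each of the 6 samples (x axis). The Ccrl2 band widens from about 1.04% with PBS to 12.6% at 10 µM, the Fpr1 band narrows from 16.4% to 1.87%, and the C3ar1 band stays between 34.1% and 43.4%.

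The genes with the pattern most like Cx3cr1 over the 6 samples were F13a1, Cemip, Il1b and Thbs1. Likeness was the root mean square difference between profiles of log2(FPKM + 1), each taken about its own mean, and came to 0.335 for F13a1, a coagulation factor XIII gene that is also 1 of the classical monocyte markers above, and 0.488, 0.628 and 0.629 for the others. F13a1 stood at 41.0 and 42.7 FPKM with PBS, 6.07 and 5.41 in the 5 µM samples and 0.688 and 0.884 in the 10 µM samples. Cemip acts in hyaluronan breakdown, Il1b encodes interleukin-1β and Thbs1 encodes thrombospondin 1. Il1b was the most uneven of them with PBS, at 21.6 and 11.6 FPKM, and stood at 0.299 and 0.87 at 5 µM and 0.173 and 0.111 at 10 µM. Thbs1 went from 956 and 1082 FPKM with PBS to 215 and 200 at 5 µM and 100 and 71.1 at 10 µM. Likeness on this scale is not likeness in fold change, because the scale compresses low values such as those of Cx3cr1 at 10 µM. For Ccrl2 the most similar were H2-Q6 (0.068), Ddit3 (0.123), H2-Q7 (0.134) and Vwf (0.17). Vwf was below 1 FPKM with PBS, at 0.669 and 0.782, where the scale compresses its change. It stood at 4.86 and 5.21 FPKM at 5 µM and 13.8 and 14.6 at 10 µM. H2-Q6, a class I histocompatibility gene of a family whose members can share fragments, went from 30.1 and 29.6 FPKM with PBS to 78.9 and 80.1 at 5 µM and 240.6 and 235.4 at 10 µM. Ddit3, which encodes the stress-response factor CHOP, went from 18.1 and 16.7 to 55.6 and 54.2 and to 129.4 and 128.5 FPKM.

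**Figure D4:**
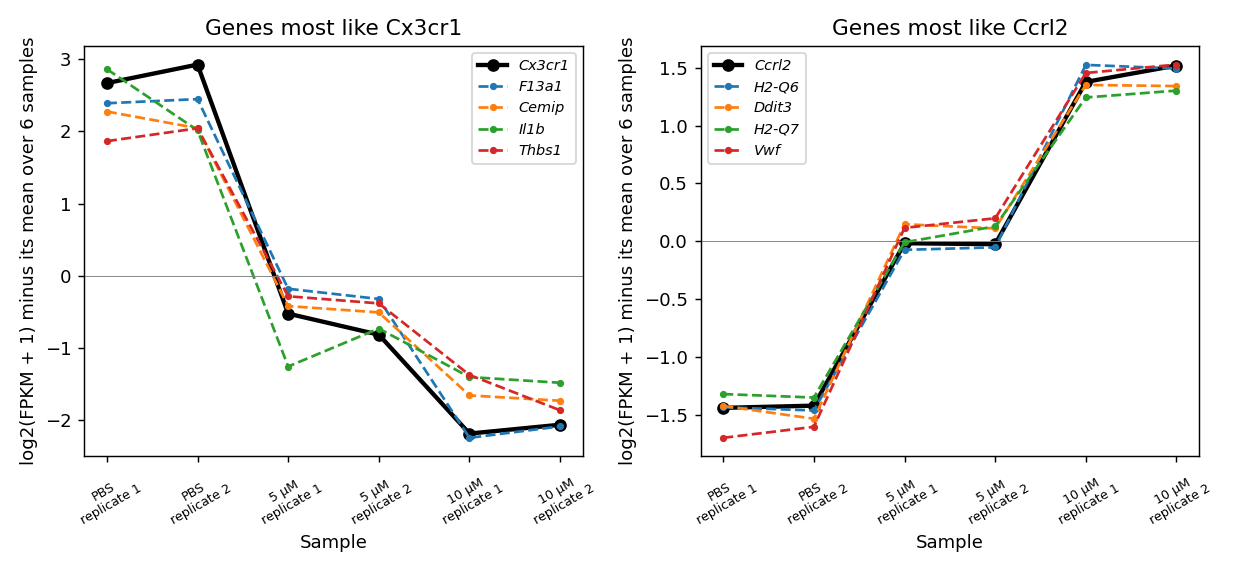
log2(FPKM + 1) minus its mean over the 6 samples (y axis) in each sample (x axis) for Cx3cr1 with its 4 most similar genes (left) and Ccrl2 with its own 4 (right). F13a1 runs closest to Cx3cr1 (root mean square difference 0.335) and H2-Q6 closest to Ccrl2 (0.068).

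Among 34 other chemoattractant receptor genes, 10 were expressed highly enough to test, and the remaining 24 had at most 1.6 FPKM in any sample. At 10 µM 8 of the 10 fell and 2 rose, and at 5 µM 6 fell and 2 rose (limma). Of all tested genes 22.0% fell and 28.5% rose at 10 µM, and 15.4% and 15.1% at 5 µM, so the 2 rises are near or under that share. Their median log2 change was -1.03 at 10 µM and -0.26 at 5 µM, beside 0.05 and 0.01 over all tested genes. Without PBS replicate 2, or without either 5 µM replicate, 4 of the 10 were called at 5 µM, and with no filter 17 genes were called at 10 µM. S1pr2, a sphingosine 1-phosphate receptor, rose from 14.4 and 14.1 FPKM with PBS to 19.1 and 19.4 at 5 µM and 29.5 and 29.4 at 10 µM. The other gene that rose was Ptafr, the receptor for platelet-activating factor, named after its values were seen, at 51.9 and 53.4 FPKM with PBS and 88.7 and 85.9 at 10 µM. P2ry6, a receptor for UDP, fell from 77.0 and 74.7 to 64.5 and 66.8 and to 38.2 and 39.7 FPKM. Cmklr1, the signalling receptor for chemerin, fell from 47.3 and 45.7 FPKM to 41.8 and 40.1 and to 26.6 and 26.1, while Ccrl2, the atypical receptor for that ligand, rose. Gpr183, which responds to oxysterols, fell from 6.78 and 8.04 FPKM to 4.62 and 4.46 and to 1.49 and 1.98.

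Of 21 ligand genes of the 9 receptors, 16 were tested. At 10 µM 9 fell and 4 rose, and at 5 µM 7 fell and 3 rose (limma), where 22.0% of all tested genes fell and 28.5% rose at 10 µM, and 15.4% and 15.1% at 5 µM. The 4 rises among 16 genes are near the share over all genes. Their median log2 change was -0.74 at 10 µM and -0.43 at 5 µM, beside 0.05 and 0.01 over all tested genes. Ccl6 and Ccl9, ligands of Ccr1, fell alongside it, but the chemokine genes of the list did not all fall. At 10 µM Ccl5 fell, Ccl7 was not called and Ccl3 rose, the first 2 of them named after their values were seen. Ccl6 was 251 and 260 FPKM with PBS, then 154.8 and 145 with 5 µM and 32.2 and 28.9 with 10 µM KN93. Ccl9 was 114.4 and 101.6 FPKM in the PBS samples, 44.0 and 39.1 at 5 µM, and 14.0 and 11.998 at 10 µM. Saa3, of the serum amyloid A family, fell from 628 and 445 FPKM to 174.7 and 223 and to 31.0 and 31.0. Cxcl12, the ligand of Cxcr4, fell from 16.9 and 13.01 FPKM to 3.09 and 3.95 and to 1.73 and 1.56, while its receptor rose at 10 µM. Cx3cl1, named after its values were seen because it encodes the ligand of Cx3cr1, was low, at 1.76 and 1.81 FPKM in the PBS samples, 0.551 and 0.826 at 5 µM, and 0.60 and 0.565 at 10 µM. Cx3cl1 and Camp passed the filter only through their PBS samples, so their calls are no support for a fall. The counts of falls and the medians of the ligand genes include both. The 4 ligand genes that rose at 10 µM were Ccl3, Ccl4, Ccl8 and Mif, which were higher by 0.16, 0.40, 0.68 and 0.73 on the log2 scale (limma adjusted p = 0.0447, 0.013, 0.00963 and 0.000672), also named after their values were seen. Rarres2, which encodes chemerin, and Hc, which encodes complement C5, were below the filter and were likewise named after their values were seen.

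Of 39 genes for receptor signalling and desensitization, 38 were tested. The list holds G proteins and their regulators, receptor kinases, arrestins, phospholipases C, small GTPases with their activators, and downstream kinases with their subunits. At 10 µM 24 fell and 7 rose, and at 5 µM 17 fell and 2 rose (limma), with median log2 changes of -0.43 and -0.17. Over all tested genes 22.0% fell and 28.5% rose at 10 µM, 15.4% and 15.1% at 5 µM, and the medians were 0.05 and 0.01. The 19 calls at 5 µM became 6 and 10 without PBS replicate 1 and 2, 5 and 8 without 5 µM replicate 1 and 2, and 11 with no filter. Arrb2, which encodes β-arrestin 2, a scaffold that uncouples and internalizes activated receptors, fell from 120 and 107.8 FPKM with PBS to 77.0 and 77.8 at 5 µM and 44.9 and 46.4 at 10 µM. The receptor kinase genes Grk6 and Grk2 fell by 0.82 and 0.58 at 10 µM on the log2 scale (limma adjusted p = 0.00016 and 0.000261). Lyn, a Src family kinase, fell from 83.9 and 79.4 FPKM to 55.4 and 54.9 and to 47.1 and 44.1.

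**Figure D5:**
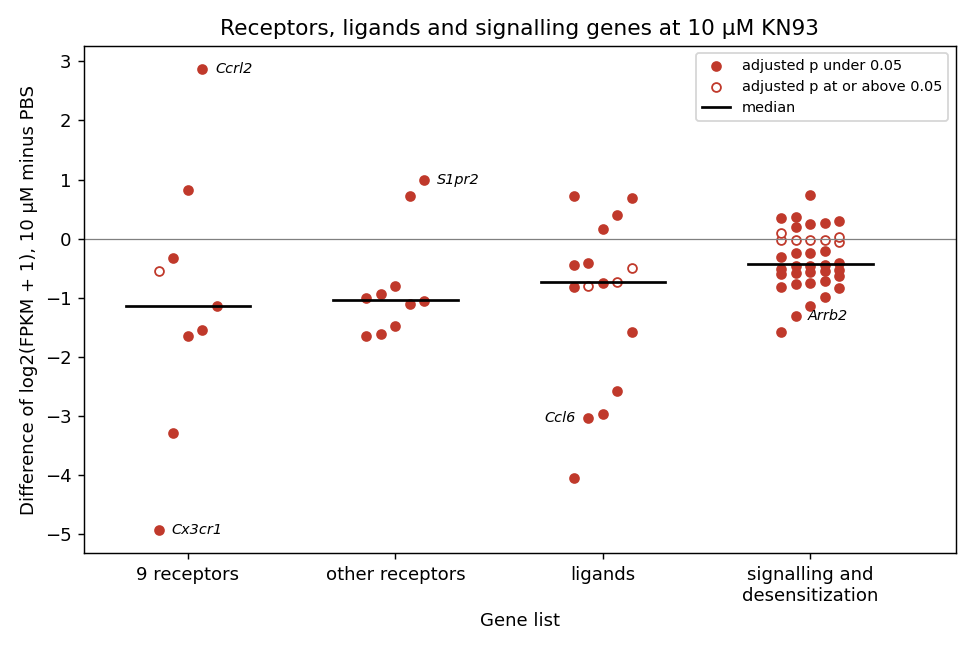
Difference of log2(FPKM + 1) at 10 µM against PBS (y axis) for the tested genes of each list (x axis): the 9 receptors, other chemoattractant receptors, ligands, and signalling and desensitization genes; filled points have an adjusted p under 0.05 and lines are medians. The medians are -1.14, -1.03, -0.74 and -0.43 from left to right, and Ccrl2 (2.87) and Cx3cr1 (-4.93) are the extremes. The first median is the value of Ccr2, which passed the filter only through its PBS samples. So did Cx3cl1 and Camp among the ligands.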

How the data were processed

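Total RNA of the 6 macrophage samples was isolated with TRIzol before Illumina sequencing, per the labels' protocols. The authors deposited FPKM values in 1 table with a column per sample, matched to the samples by the titles that end the column names. All 6 names start with DXM, which no label explains, so an agent common to all groups cannot be told from the labels. The unit comes from the table's name and its values. The submitters' processing notes name HISAT2 and GRCm38. The aligner's version, the counting tool, annotation, strand setting and any filter remain not given in the sources used here.

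Gene IDs were matched to GENCODE M21 for 54409 of 54446 entries (99.93%). FPKM times exon length came out as whole multiples of a step per sample (98.8% to 99.0% of values of up to 20 fragments within 0.1 fragment), which gave the fragments and library totals. The fit on log2(FPKM + 1) used limma 3.58.1 under R 4.3.3 (intensity trend, 3 groups, all 6 samples, two-sided, 3 residual degrees of freedom plus 2.72 from eBayes). The fit was tested on simulated data. The difference between dose steps was a contrast in the same fit. The members, lists, motifs and rules were chosen with earlier results of these data known. Named genes were the 9 receptors, up to 4 tested genes per list with the smallest p at 10 µM, and the 4 genes most like Cx3cr1 and Ccrl2, leaving out predicted genes. Marker lists were named by the same rule, plus defining genes near 0. Other settings tried were 0.1 FPKM as pseudocount, no filter, a filter of 5 FPKM, median-of-ratios scaling (factors 0.9899 to 1.037), quantile normalization, no trend, only the groups compared, a replicate block, voom on recovered fragments, an added threshold of 1 on the size of the log2 change, and leaving out single samples.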

Additional observations from a re-analysis of the deposited data

How the results depend on the processing

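Cx3cr1, Ccr1, Ccrl2, C5ar1 and Fpr1 kept their direction and their call in all 3 comparisons under each of 15 alternatives (the added fold threshold aside). Ccr2 kept both against PBS under each of 14, but it passed the filter only through its PBS samples, so this is no support for a fall. With the added fold threshold counted too, each comparison had 143 alternative results for single receptors. Of these, 124 at 5 µM kept direction and call, and so did 127 at 10 µM and 138 between the doses. With a log2 change of at least 1 as well, 3 receptors (418 genes) were called at 5 µM, 998 genes at 10 µM, 3 receptors (192 genes) between the doses and 208 genes for the difference between dose steps, where 7, 3881, 6427, 5, 2536 and 682 were called without it. At 10 µM the threshold removed the receptor calls of Cxcr4 (0.83) and C3ar1 (-0.32). It kept those of Cx3cr1, Ccr1, Ccr2, Ccrl2, C5ar1 and Fpr1. Leaving out a sample in turn gave 6 to 8 receptors and 1897 to 3856 genes at 5 µM, 6 to 9 and 4575 to 5977 at 10 µM, and 5 to 5 and 869 to 1922 between the doses. At 5 µM the gene count was 1897 and 2135 without PBS replicate 1 and 2, and 2095 and 1989 without 5 µM replicate 1 and 2. Between the doses it was 1085 and 869 without 5 µM replicate 1 and 2, and 1434 and 1449 without 10 µM replicate 1 and 2. For the difference between dose steps it gave 0 to 3 receptors and 0 to 239 genes (limma; 2359 genes had an unadjusted p under 0.05 in the fit with 0 calls, without 5 µM replicate 1). These fits leave 1 sample in a group, which is assumed to vary like the others. With no filter, 1350 genes were called between the doses and 45 for the difference between steps, and voom called 1290 for the latter. The 1 receptor called for that difference, Cx3cr1, became 0 with a pseudocount of 0.1 FPKM, with no filter and with voom (3, 3 and 2 receptors had an unadjusted p under 0.05). Signs turned only for small changes that were not called: the step difference of Ccrl2 was -0.01 with a pseudocount of 0.1 FPKM and ran from -0.01 (without 10 µM replicate 2) to 0.13 with a sample left out, that of C3ar1 ran from -0.21 to 0.02 (without 5 µM replicate 2), and the change of Cxcr4 between the doses from -0.04 (without 10 µM replicate 2) to 0.42. The cause of these moves was not tested.

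The labels do not say that a replicate number pairs samples, and the replicate differences of the groups correlated at -0.055, 0.0143 and 0.0373 across genes. With the replicate block, 8 receptors and 3409 genes were called at 5 µM, 9 and 6023 at 10 µM, and 5 and 2079 from 5 µM to 10 µM. For the difference between steps the replicate block gave 1 receptor and 354 genes. Depth limits Cx3cr1 and Ccr2 at 10 µM, where 19 to 51 fragments lie behind a value.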
